A study of Mus musculus with 13 samples.

Results

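Sox2, the long non-coding gene Sox2ot that spans it, and 8 further genes of the Sox family (Sox4, Sox6, Sox7, Sox9, Sox11, Sox13, Sox15 and Sox21) were followed through 13 mouse tumors of NUT carcinoma, 10 genes of 55332 with values in the count table. They were listed by name, with no measured value in the rule. The list does not hold every Sox gene with reads, since 11 further Sox genes were in the table and up to 8 of them passed the same count filter. RNA depleted of ribosomal RNA was sequenced from 6 oral mucosa tumors (4 Sox2 WT, 2 Sox2 KO) and 7 pancreatic tumors (4 Sox2 WT, 3 Sox2 KO). All tumors, controls included, carried NCT+/-, the allele with which Cre recombinase induces the chromosomal translocation of Nutm1. The genotype label of the oral WT tumors is KRT14-Cre; NCT+/-, and that of the oral KO tumors reads KRT4Cre; NCT+/-; Sox2fl/fl, whereas the study's methods name KRT14-Cre for both. The pancreatic WT tumors were Pdx1-Cre; NCT+/-, and the pancreatic KO tumors carried Sox2fl on both alleles in addition. The KRT14 promoter drives Cre in the basal cells of several epithelia, skin and salivary gland among them, and Pdx1-Cre acts in the pancreatic lineage. Cells of each tumor that never expressed Cre keep their floxed alleles, and whole tumors were sequenced.

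SOX proteins are transcription factors that bind DNA through an HMG box and are sorted into groups by its sequence. Sox2, with Sox1 and Sox3, forms group B1, keeps stem and progenitor cells undifferentiated in the embryo and in stratified epithelia, and is a known target of the NUT fusion protein. The remaining members belong to groups B2 (Sox21), C (Sox4, Sox11), D (Sox6, Sox13), E (Sox9), F (Sox7) and G (Sox15). Whether a tumor that has lost Sox2 holds more of another Sox gene, and which Sox genes the tumors of each site hold to begin with, are the questions that the comparisons address.

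The mouse Sox2 gene has a single exon (GRCm38, chr3:34650405-34652461, plus strand), with 957 coding bases followed by a 3′ UTR of 1089 bases. Sox2ot runs along the same strand (chr3:34104270-34682619) in 18 annotated transcripts, none of which shares an exonic base with Sox2. Reads were assigned by sequence, so the stretch of Sox2 most like Sox21 is shown, 60 coding bases of the HMG box (Sox2 at chr3:34650584-34650643, GENCODE transcripts). It was chosen for Sox21 alone, and Sox1 and Sox3 were not aligned to it. Capitals mark the bases that differ from Sox2.
Sox2: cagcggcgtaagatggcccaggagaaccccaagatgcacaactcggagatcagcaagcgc
Sox21: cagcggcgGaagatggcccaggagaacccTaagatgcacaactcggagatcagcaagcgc
Sox15: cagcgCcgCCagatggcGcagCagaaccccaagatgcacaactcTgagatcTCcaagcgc
Sox4: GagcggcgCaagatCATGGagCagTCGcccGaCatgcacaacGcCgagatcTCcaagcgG
Sox9: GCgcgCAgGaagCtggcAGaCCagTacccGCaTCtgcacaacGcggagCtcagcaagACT

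In this window Sox21 was identical to Sox2 at 58 of 60 bases (96.7%), Sox15 at 52 (86.7%), Sox4 at 42 (70.0%), Sox9 at 40 (66.7%) and Sox11 at 39 (65.0%). The longest run of bases identical to Sox2 anywhere in the transcript was 38 in Sox21, 22 in Sox11 and Sox15, 20 in Sox9 and 16 in Sox4. Outside the list it was 38 in Sox1, 32 in Sox3, 30 in Sox10 and 29 in Sox14. Over the whole transcript the overlap is small: 0.888% of the 31-base words of Sox2 occur in another gene (Sox1, Sox3 and Sox21), and 0.398% of those of Sox21. Among the members only Sox2ot was above 1.12%, at 5.44%. On the opposite strand, exons of Gm26735 cover 2616 bases of Sox4, those of Gm4675 cover 713 bases of Sox21 and those of Mpdu1 cover 31 bases of Sox15. The library kit and the quantification were both stranded. The forward primer with which the study genotyped the floxed allele, tggaatcaggctgccgagaatcc, lies within the 3′ UTR of Sox2 at chr3:34652326-34652348. The extent of the deleted segment was not analysed here.

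The oral WT libraries held 29394258 to 40420228 estimated counts and the oral KO libraries 11735315 and 20432164. The pancreatic WT libraries held 40964533 to 46134830 and the pancreatic KO libraries 89562790 to 120482829, and depth parted KO from WT in opposite directions at the 2 sites. Oral KO replicate 1 stood apart with 59.5% of its counts in protein-coding genes, against 84.5% to 91.7% in the other 12 tumors. The summed level of 10 skeletal muscle fiber genes was 5605 and 3089 CPM (counts-per-million) in the oral KO tumors, 571 in oral WT replicate 4, and 7.37 to 28.3 in the remaining 10 tumors. Nutm1, the NUT gene of the fusion, lay between 41.0 and 64.3 CPM in every tumor. All levels below are CPM with edgeR's TMM factors unless they are given per kilobase.

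Sox2 reads were all but lost in the KO tumors of both sites. In the oral WT tumors Sox2 stood at 9.04, 19.7, 18.0 and 15.6 CPM, from 410 to 680 estimated counts, and the 2 oral KO tumors held 0 and 1 count. In the pancreatic WT tumors it stood at 29.1, 34.1, 33.9 and 33.9 CPM, from 1111 to 1487 counts, and the 3 pancreatic KO tumors held 0, 1 and 2 counts. Every tumor thus matched its genotype label, with no overlap between WT and KO at either site. Pooled over tumors, 2297 WT counts stood against 1 KO count at the oral site, a 527-fold lower rate (exact conditional 95% interval 94.4 to 20800). In the pancreas 5178 WT counts stood against 3, a 3160-fold lower rate (95% interval 1080 to 15300). Both intervals cover counting error only. With so few KO counts, the fitted log2 fold changes of -8.90 (standard error 0.75, adjusted p = 0.00479) and -11.50 (standard error 0.43, adjusted p = 2.35e-05, edgeR's quasi-likelihood test) depend on the prior count.

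Sox2ot, whose product is a non-coding transcript often co-expressed with Sox2 in stem cells, went the other way in the pancreas. It stood at 2.23, 2.52, 2.44 and 2.05 CPM in the pancreatic WT tumors and at 24.8, 13.4 and 30.7 CPM in the pancreatic KO tumors. Each KO tumor was above each WT tumor, and Sox2ot rose by 3.33 on the log2 scale (standard error 0.29, adjusted p = 0.00343). In 1 fit of all 13 tumors its value was 3.31 but not called (adjusted p = 0.0712). In the oral WT tumors it stood at 0.860, 0.769, 0.887 and 4.39 CPM, and in the oral KO tumors at 21.9 and 4.06 CPM. Oral WT replicate 4 therefore lay above oral KO replicate 2, and the difference of 3.00 (standard error 0.94, adjusted p = 0.0749) was not called. Without oral WT replicate 4 it was 4.05 and called (adjusted p = 0.0245), and DESeq2's Wald test called it on all 6 tumors (2.95, adjusted p = 0.00593). The higher of the oral KO values came from replicate 1, the library with the low protein-coding share, and both oral KO tumors had the high muscle sums. Their part in the oral value was not tested. In the pancreas the muscle sum was 7.37 to 12.3 CPM in WT and 8.47 to 12.3 CPM in KO tumors, whereas other lists parted KO from WT without overlap, in either direction. The sum of 8 suprabasal keratinocyte genes was 3077 to 5963 CPM in pancreatic WT and 470 to 825 CPM in pancreatic KO tumors, with 2 of the 8 called down, the keratins Krt4 (-3.46, standard error 0.28, adjusted p = 0.00256) and Krt13 (-3.69, standard error 0.43, adjusted p = 0.0163). The sum of 6 hair follicle genes was 17.5 to 24.3 CPM in WT and 8.92 to 12.5 CPM in KO tumors, with 0 of 5 tested genes called by edgeR, 1 at an unadjusted p under 0.05 and 1, Foxn1, called down by DESeq2. The sum of 8 Schwann and melanocyte genes was 77.8 to 105.7 CPM in WT and 45.4 to 73.9 CPM in KO tumors. Of its 7 tested genes 4 had positive and 3 negative values, with 0 called by edgeR and 1, Pmel, called down by DESeq2. The sum of 6 pancreatic duct genes was higher in KO tumors, at 7908 to 9544 against 2255 to 4585 CPM, although 3 of the 6 had negative values. The part of these cells in the pancreatic value was not tested.

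**Figure D1:**
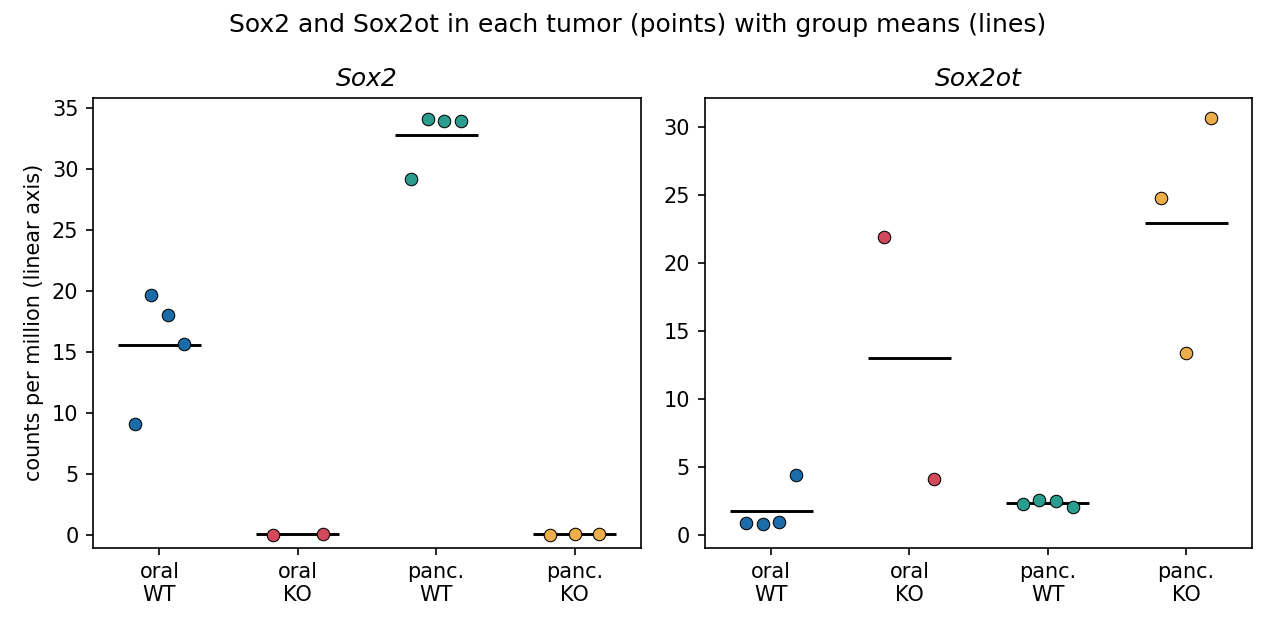
Sox2 (left) and Sox2ot (right) in CPM on linear axes, 1 point per tumor and a line at each group mean. Sox2 was at 9.04 to 34.1 CPM in the WT tumors and at 0 to 2 counts in the KO tumors, while Sox2ot reached 13.4 to 30.7 CPM in the pancreatic KO tumors against 2.05 to 2.52 CPM in pancreatic WT.

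With both genes counted, 2 of the 10 Sox genes fell and 0 rose in oral KO tumors, and 1 fell and 1 rose in pancreatic KO tumors. Sox2, deleted by design, is among the genes that fell at each site. The only other gene that fell was Sox4, in oral tumors. The call asks for an adjusted p below 0.05 together with a log2 fold change past 1 in either direction. Over all genes tested, 2.89% were called down and 8.81% up in the oral comparison, and 0.292% down and 0.337% up in the pancreatic one. The oral shares rest on single libraries, since the 1968 genes called up became 43 without WT replicate 1, 19 without WT replicate 2, 912 without WT replicate 3, 25 without KO replicate 1 and 97 without KO replicate 2, and the 646 called down became 27, 17, 302, 23 and 31. In the pancreas, leaving out 1 tumor took the 83 called up to between 25 and 100 and the 72 called down to between 14 and 169, the highest without WT replicate 4. The median log2 fold change of the 10 genes was -0.37 in oral and 0.0045 in pancreatic tumors, where that of all genes tested was -0.0030 and 0.02 and that of protein-coding genes -0.21 and 0.02. At an unadjusted p under 0.05 stood 3 of the 10 at each site, Sox2 among them, against 35.4% of all genes in the oral and 15.9% in the pancreatic comparison. Both medians of the 10 genes also include Sox2, whose fall was fixed by the deletion.

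Of the group C genes, which act in progenitor cells of many tissues, Sox4 fell in oral KO tumors. It stood at 155, 183, 202 and 315 CPM in oral WT and at 86.2 and 53.9 CPM in oral KO tumors. Both KO tumors lay below every WT tumor, and Sox4 decreased by 1.53 on the log2 scale (standard error 0.36, adjusted p = 0.0371). The call was lost when any oral tumor but WT replicate 4 was left out (adjusted p from 0.0579 to 0.172), and among protein-coding genes alone (-1.34, adjusted p = 0.0918). The muscle sum was higher where Sox4 was lower, at 5605 and 3089 CPM in oral KO against 15.1 to 571 CPM in oral WT tumors. The protein-coding share was lower in oral KO tumors, at 59.5% and 84.5% against 88.5% to 90.0%. A leukocyte list of 8 genes was lower too, at 133.8 and 161.7 against 203.7 to 383.5 CPM. Of its 7 tested genes 6 had negative values, with 0 called by edgeR and 2 called down by DESeq2. The 6 pancreatic duct genes summed to 247 and 316.5 against 323.4 to 518.8 CPM, with 3 of 5 tested negative and 0 called by edgeR. The part of each was not tested. In the pancreas the 4 WT tumors had 106, 165, 121 and 260 CPM of Sox4 and the 3 KO tumors 115, 170 and 271 CPM. These ranges overlapped almost wholly (0.20, standard error 0.39, adjusted p = 0.845). The difference between the KO effects of the 2 sites was 1.80 (standard error 0.57, adjusted p = 0.0530) and did not pass the threshold, although DESeq2 called it (1.85, adjusted p = 0.0152).

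Sox11, the other group C member, is a gene of neural and mesenchymal progenitors. It stood at 7.68, 4.55, 6.21 and 13.02 CPM in oral WT tumors, and the oral KO tumors lay on either side of that range, at 3.67 and 22.0 CPM. In the pancreas it stood at 9.79, 9.42, 9.91 and 45.8 CPM in WT and at 29.6, 32.0 and 48.9 CPM in KO tumors. WT replicate 4 thus lay among the KO tumors and the other 3 WT tumors lay below them all. With all tumors the pancreatic difference was 0.99 (standard error 0.62, adjusted p = 0.491). Without WT replicate 4 it was 1.94 and called (adjusted p = 0.0196). The call turns on that single library.

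Sox9, of group E, drives cartilage formation and also marks ductal and progenitor cells of the pancreas and the hair follicle. It stood at 220, 46.6, 66.3 and 124 CPM in oral WT tumors and at 62.5 and 36.3 CPM in oral KO tumors. In the pancreas it stood at 197, 728, 233 and 591 CPM in WT and at 450, 868 and 766 CPM in KO tumors. WT and KO overlapped at both sites, and neither the oral difference (-1.12, standard error 0.65, adjusted p = 0.261) nor the pancreatic one (0.68, standard error 0.50, adjusted p = 0.559) was called. Among the pancreatic WT tumors, replicates 2 and 4 were above replicates 1 and 3 in Sox9, Sox4 and Sox6, and likewise in the summed level of 12 chondrocyte genes. That sum was 24.1, 216, 65.5 and 278 CPM in WT replicates 1 to 4 and 215, 675 and 966 CPM in the pancreatic KO tumors. Of its 11 genes tested for the pancreatic KO effect, 9 had positive and 2 negative values. By edgeR 0 were called, with 1 at an unadjusted p under 0.05, and DESeq2 called 1 up, Hapln1. Much of the KO sum was Hapln1, at 23.7 CPM on average in WT and 300 CPM in KO tumors (73.2 to 715 CPM). The summed level of 6 pancreatic duct genes was 2255 to 4585 CPM in pancreatic WT and 7908 to 9544 CPM in pancreatic KO tumors, with 0 of the 6 genes called by edgeR, 1 at an unadjusted p under 0.05 and 1 called up by DESeq2. The sum follows Spp1, a secreted matrix protein, at 1587 CPM on average in WT and 7588 CPM in KO tumors (2.27, standard error 0.77, adjusted p = 0.218), and 3 of the 6 genes had negative values, Krt19 (-0.66), Krt7 (-0.33) and Epcam (-0.11). The part of either cell type in Sox9 was not tested.

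The group D genes Sox6 and Sox13 lack a domain of their own for activating transcription and act with partner factors, Sox6 alongside Sox9 in cartilage. Sox6 stood at 7.10, 10.7, 7.22 and 7.83 CPM in oral WT and 8.43 and 5.19 CPM in oral KO tumors, with a difference of -0.19 (standard error 0.34). In the pancreas it stood at 7.98, 17.7, 13.3 and 21.8 CPM in WT and at 1.21, 18.1 and 9.88 CPM in KO tumors. KO replicate 1 was the lowest of the 13 tumors, with 138 counts in the deepest library, and the KO tumors differed 15.0-fold among themselves. The pancreatic difference of -0.63 (standard error 0.77, adjusted p = 0.743) lay within that spread. Sox13 stood at 5.98 to 12.9 CPM in oral WT and at 13.1 and 3.67 CPM in oral KO tumors, and at 13.5 to 17.7 CPM in pancreatic WT and 11.8 to 23.1 CPM in pancreatic KO tumors. Its KO differences were -0.16 (standard error 0.55) and 0.04 (standard error 0.26), with adjusted p of 0.859 and 0.960.

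Sox7, of group F, is a gene of endothelial and early endodermal cells. In the pancreas it stood at 28.5, 19.4, 27.3 and 24.4 CPM in WT and at 17.7, 14.7 and 13.9 CPM in KO tumors. All 3 KO tumors lay below all 4 WT tumors, and the difference of -0.68 (standard error 0.17) had an unadjusted p of 0.0035 but an adjusted p of 0.110, and was not called. The summed level of 10 endothelial genes was 157 to 205 CPM in pancreatic WT and 170 to 282 CPM in pancreatic KO tumors, and its part in the Sox7 values was not tested. The group F relative Sox18 went from 3.29 ± 1.13 CPM in the pancreatic WT tumors (SD, n = 4) to 5.72 ± 1.24 CPM with Sox2 lost (SD, n = 3; 0.81, standard error 0.32, adjusted p = 0.271). At the oral site Sox7 ranged from 5.07 to 32.1 CPM in WT tumors and was 25.7 and 5.81 CPM in KO tumors, both inside that range.

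Sox15 and Sox21 are closest to Sox2 among the members aligned in the window shown above, and neither was called in KO tumors. Sox15, the only group G gene, is known from muscle precursors and from stem cells, where it binds sites that Sox2 also binds. It stood at 17.2, 12.7, 14.6 and 15.2 CPM in pancreatic WT and 16.4, 9.13 and 17.9 CPM in pancreatic KO tumors (-0.03, standard error 0.24, adjusted p = 0.969). In oral WT tumors it stood at 3.60, 4.06, 2.79 and 3.05 CPM, and in oral KO tumors at 3.77 and 0.663 CPM, the last from 17 counts. Sox21, a group B2 gene of hair follicle, tooth and neural cells that mostly represses its targets, stood at 1.28, 2.31, 3.93 and 16.9 CPM in oral WT and 0.893 and 2.53 CPM in oral KO tumors. Oral WT replicate 4 was far above the rest of its group, and the oral difference of -1.73 had a standard error of 1.15 (adjusted p = 0.317). In the pancreas Sox21 stood at 8.32, 4.47, 13.7 and 14.0 CPM in WT and 7.58, 2.60 and 5.53 CPM in KO tumors (-0.94, standard error 0.48, adjusted p = 0.393). No Sox gene other than Sox2 and Sox2ot was thus called in pancreatic KO tumors. An adjusted p above the threshold does not show equal levels, since the standard errors of these 8 genes ran up to 1.15 in the oral and 0.77 in the pancreatic comparison.

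**Figure D2:**
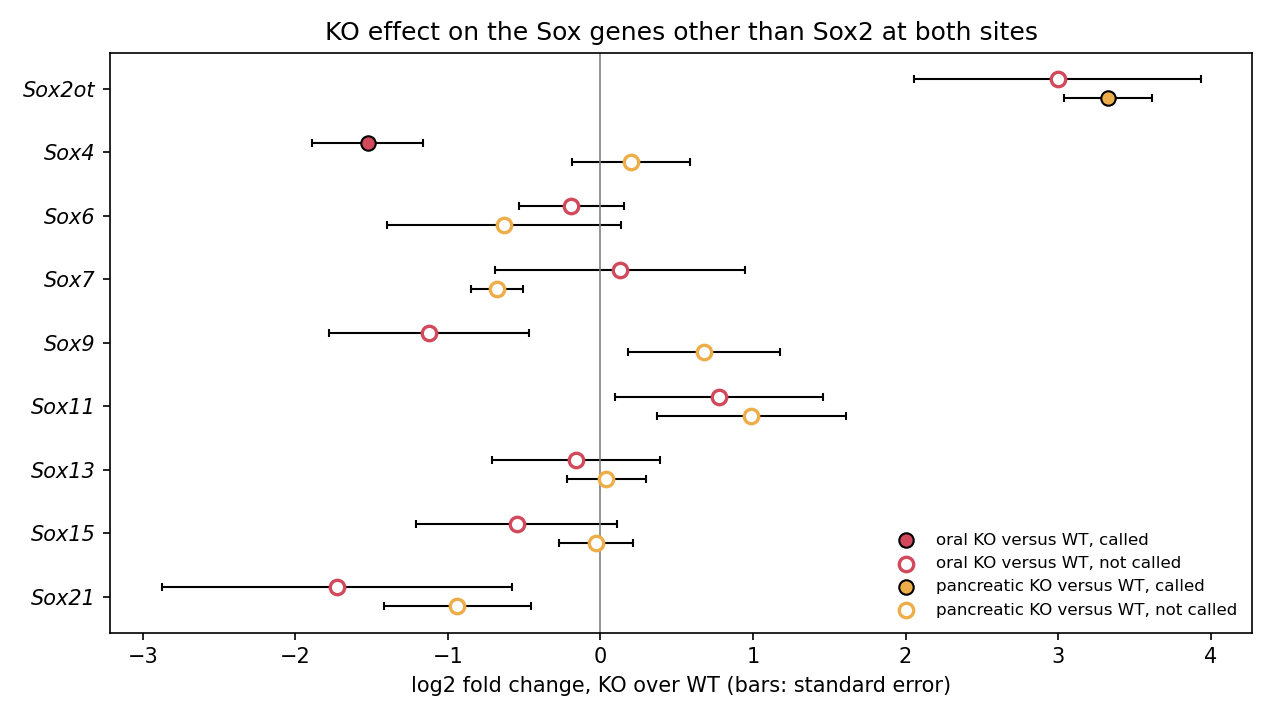
Log2 fold change of KO over WT (horizontal axis) for the 9 genes other than Sox2, with bars of 1 standard error. Filled points passed the call and open points did not. Sox4 at the oral site and Sox2ot in the pancreas are the filled points.

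**Figure D3:**
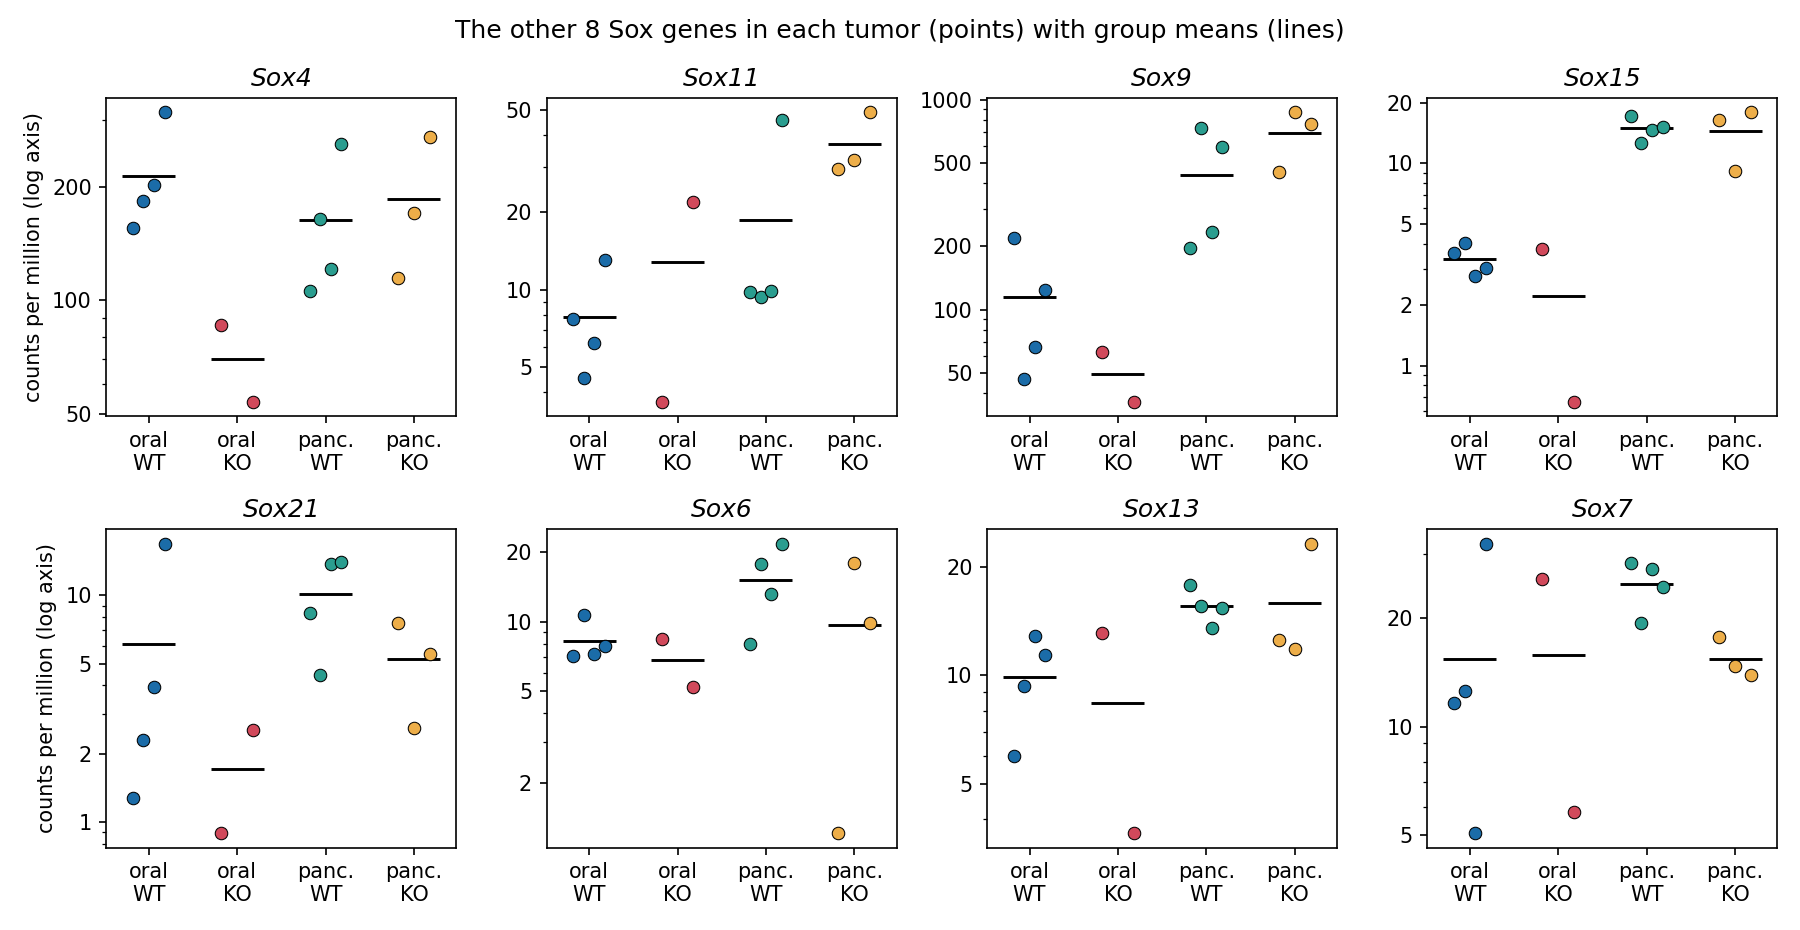
CPM on log axes for the other 8 Sox genes, 1 point per tumor and a line at each group mean. Sox4 lies lower in both oral KO tumors than in every oral WT tumor, and Sox15 lies at 12.7 to 17.2 CPM in pancreatic WT against 2.79 to 4.06 CPM in oral WT tumors.

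The KO effects of the sites were compared directly in 1 fit of all 13 tumors. Each site had its own Cre driver, so site and driver cannot be told apart in it. None of the 10 genes was called by edgeR, where 4.85% of 25836 genes were called with the higher value in the pancreas and 7.41% with the lower. At an unadjusted p under 0.05 stood 1 gene of the 10, Sox4, against 34% of all genes tested. The difference was 1.88 for Sox9 (standard error 0.88, adjusted p = 0.156), 0.42 for Sox2ot (standard error 1.00, adjusted p = 0.795) and 0.64 for Sox15 (standard error 0.66, adjusted p = 0.520). For Sox2ot the effects of 3.00 and 3.33 were thus not told apart, although the call was made in the pancreas alone. Without oral KO replicate 1, the library low in protein-coding counts, the Sox15 value was 2.35. The oral KO side of that fit was replicate 2 alone, with 17 counts of Sox15. The value for Sox2 rests on 4 KO counts in all and is not read.

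Among WT tumors, 9 of the 10 genes had lower values at the oral site than in the pancreas, and 3 of them fell below it by the call, Sox15, Sox9 and Sox2. Over all genes tested, 7.24% were called lower and 9.30% higher in oral WT tumors, and the median log2 difference of the 10 genes was -0.81 against 0.0046 over all genes. The Sox genes outside the list went the other way. Of the 7 tested, 6 had higher values at the oral site and 1 a lower one, with a median of 1.23. Sox15 differed most firmly, at 3.37 ± 0.569 CPM in oral and 14.9 ± 1.88 CPM in pancreatic WT tumors (SD, n = 4 each), a difference of -2.14 (standard error 0.20, adjusted p = 5.51e-04). Sox2 stood at 15.6 ± 4.66 and 32.8 ± 2.40 CPM (SD, n = 4 each), with each oral tumor below each pancreatic one (-1.07, standard error 0.23, adjusted p = 0.00989). Without oral WT replicate 1, the lowest in Sox2, its difference was -0.88 with an adjusted p of 0.0063, short of the size the call asks for. Sox9 stood at 114 ± 77.7 and 437 ± 263 CPM (SD, n = 4 each), and oral WT replicate 1 lay above pancreatic WT replicate 1. Its call (-1.93, standard error 0.59, adjusted p = 0.0442) was lost on leaving out any of oral WT replicates 2, 3 and 4 or pancreatic WT replicates 2, 3 and 4 (adjusted p from 0.0517 to 0.109), and with no count filter (adjusted p = 0.131).

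These differences are of whole tumors, in which fewer cells of a type and less RNA per cell cannot be told apart. Site and Cre driver cannot be told apart either, since the oral WT tumors were KRT14-Cre and the pancreatic WT tumors Pdx1-Cre. A fibroblast list of 8 genes summed to 9451 to 19820 CPM in oral WT and 1164 to 2337 CPM in pancreatic WT tumors, with all 8 genes called higher at the oral site. A basal keratinocyte list of 8 genes summed to 4649 to 8458 and 8949 to 16180 CPM, with 4 genes called lower and 1 higher at the oral site. The 6 pancreatic duct genes summed to 323 to 519 and 2255 to 4585 CPM, with all 6 called lower at the oral site and a median of -3.73. Their part in the Sox differences was not tested. Nutm1 stood at 47.8 to 62.5 CPM in oral WT and 54.8 to 62.2 CPM in pancreatic WT tumors, and so overlapped where Sox2 did not.

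The remaining members did not pass the call between the sites, and 1 oral tumor decided several of them. Sox6 (-0.88, standard error 0.30, adjusted p = 0.0640) and Sox13 (-0.65, standard error 0.24, adjusted p = 0.0787) came closest, and Sox6 was called without pancreatic WT replicate 1 (-1.08, adjusted p = 0.0213). Sox4 alone had a positive value (0.39, standard error 0.32, adjusted p = 0.407). Oral WT replicate 4 was the highest oral WT tumor in Sox2ot, Sox4, Sox7, Sox11 and Sox21. Without it 5 members were called lower at the oral site, beside 2023 of 22623 genes tested. The 5 were Sox2 and Sox15 together with Sox2ot (-1.45, adjusted p = 0.0073), Sox7 (-1.35, adjusted p = 0.0160) and Sox21 (-2.02, adjusted p = 0.0216). Those gained were all genes in which the tumor left out was the highest. That tumor also held 571 CPM of the muscle list against 15.1 to 28.3 CPM in the other 3, and the highest sum of 6 hair follicle genes, 173 against 77.1 to 101 CPM. The part of these cells was not tested.

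Levels of different genes were compared per kilobase of merged exons. In oral WT tumors the order was Sox4 (44.6 ± 14.6 CPM per kb, SD, n = 4), Sox9 (27.6 ± 18.8), Sox2 (7.57 ± 2.27), Sox7, Sox15, Sox13, Sox21, Sox11, Sox6 and Sox2ot, the last at 0.149 ± 0.153 CPM per kb. Of the neighbours in that order, the ranges parted only between Sox9 and Sox2, between Sox15 and Sox13 and between Sox6 and Sox2ot. In pancreatic WT tumors the order was Sox9 (106 ± 63.7 CPM per kb), Sox4 (34.0 ± 14.4), Sox15 (17.3 ± 2.18), Sox2 (15.9 ± 1.17), Sox7 (7.55 ± 1.23), Sox13, Sox21, Sox11, Sox6 and Sox2ot, the last at 0.199 ± 0.0184 CPM per kb. There the ranges parted between Sox4 and Sox15, between Sox2 and Sox7, between Sox7 and Sox13 and between Sox6 and Sox2ot. Sox9 was above Sox4 in 4 of 4 pancreatic WT tumors, and Sox4 was above Sox9 in 3 of 4 oral ones. Sox2 was thus within the 4 highest of the 10 at either site. Sox12, the group C gene outside the list, stood at 7.36 ± 2.08 CPM per kb in oral WT tumors, close to Sox2. Sox2 was also steady between pancreatic WT tumors, with a coefficient of variation of 7.34%. The median there was 23.03% over all genes and 17.8% over protein-coding genes. Between oral WT tumors Sox2 varied by 29.9%, above the medians of 27.1% over all genes and 24.4% over protein-coding genes.

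**Figure D4:**
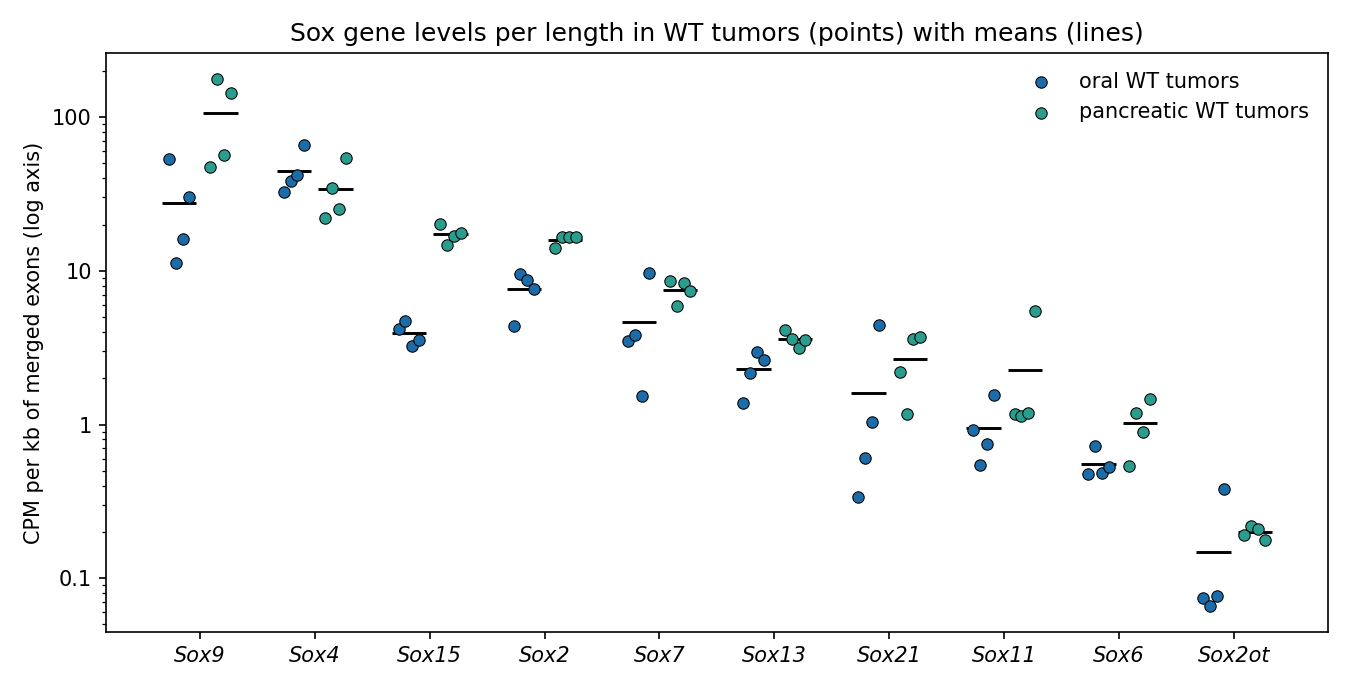
CPM per kilobase of merged exons on a log axis for the 10 genes in the 4 oral and 4 pancreatic WT tumors, ordered by the pancreatic mean, with a line at each mean. Sox15 and Sox2 part by site with no overlap, at 3.24 to 4.72 against 14.7 to 20.0 and at 4.40 to 9.56 against 14.2 to 16.6 CPM per kb.

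The 11 further Sox genes gave no call by edgeR in either KO comparison (0 of 7 tested in oral and 0 of 8 in pancreatic tumors, with 1 and 2 at an unadjusted p under 0.05). Over all genes tested, 8.81% were called up and 2.89% down in the oral and 0.337% and 0.292% in the pancreatic comparison. An unadjusted p under 0.05 was reached by 35.4% and 15.9% of all genes. DESeq2 called 1 of the 11, Sox12, down in oral KO tumors, beside 1399 of 22342 genes. In pancreatic KO tumors it called 0 of them, beside 389 genes up and 726 down of 24653. The group B1 relatives of Sox2 had few reads. Sox3 had at most 1 count in any tumor. Sox1 stood at 0 to 0.873 CPM in oral WT, 0.397 and 0.195 CPM in oral KO, 0 to 0.113 CPM in pancreatic WT and 0.112 to 0.280 CPM in pancreatic KO tumors, the last from 10 to 32 counts (1.85, standard error 0.75, adjusted p = 0.277 in the pancreas). Sox14, the other group B2 gene, had 10 counts in 1 oral WT tumor and none elsewhere. A count of 0 allows up to 0.0249 to 0.256 CPM, depending on the library. Sox5, the group D partner of Sox6, stood at 1.57, 24.2, 3.17 and 19.0 CPM in pancreatic WT and at 10.7, 27.8 and 19.0 CPM in pancreatic KO tumors, with replicates 2 and 4 again above replicates 1 and 3. In the pancreas all 8 tested genes of these 11 had positive values, with a median of 0.75 against 0.02 over all genes, and in oral KO tumors 6 of 7 had negative values, with a median of -0.13. Sox12 was the 1 gene of the 11 called between WT tumors, higher at the oral site at 32.8 ± 9.27 against 14.0 ± 6.12 CPM (SD, n = 4 each; 1.23, standard error 0.33, adjusted p = 0.0260). Sox17, an endodermal and arterial gene, stood at 0.254 to 1.48 CPM over all tumors.

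SOX2 acts together with other transcription factors, and 11 of them were followed (Pou5f1, Nanog, Klf4, Klf5, Tead1 to Tead4, Yap1, Wwtr1 and Trp63). In oral KO tumors 1 of 10 tested fell and 0 rose, beside 2.89% and 8.81% of all genes, and in pancreatic KO tumors 0 of 11 were called by edgeR, with 1 at an unadjusted p under 0.05, and 0 by DESeq2, beside 0.292% of all genes called down and 0.337% up. The gene that fell was Tead2, a DNA-binding partner of YAP1, from 26.2 ± 3.02 CPM in oral WT (SD, n = 4) to 11.0 ± 0.0581 CPM in oral KO tumors (SD, n = 2; -1.18, standard error 0.22, adjusted p = 0.0242). In the oral KO tumors the muscle sums were higher and the protein-coding share was lower, and their part in the Tead2 value was not tested. Trp63, the master factor of basal keratinocytes, stood at 733 to 1044 CPM in oral WT and 440 and 840 CPM in oral KO tumors, and at 641 to 1020 and 552 to 837 CPM in the pancreas. Its KO differences of -0.38 and -0.32 had adjusted p of 0.392 and 0.525. Klf4 and Klf5, epithelial factors, had KO differences of 0.33 and -0.59 in oral and -0.74 and -0.12 in pancreatic tumors, none of them called. Between WT tumors Klf5 (-1.30, adjusted p = 0.0296) and Tead4 (-1.30, adjusted p = 0.0267) were lower and Tead2 (1.92, adjusted p = 0.0105) was higher at the oral site.

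Around Sox2 itself, 34 other genes lie within the Sox2ot span or 500 kb to either side. Of them 11 were tested in oral tumors, where 2 rose and 0 fell beside 8.81% and 2.89% of all genes, and 15 in pancreatic tumors, where none was called by edgeR and 1 stood at an unadjusted p under 0.05. The 2 that rose were Gm3143, a non-coding gene beyond the 3′ end of Sox2ot (0.369 ± 0.0637 CPM in 4 oral WT and 1.31 ± 0.304 CPM in 2 oral KO tumors; 1.90, standard error 0.42, adjusted p = 0.0324), and Gm43668, a locus upstream of it (4.32 ± 0.462 and 10.7 ± 2.43 CPM; 1.38, standard error 0.28, adjusted p = 0.0289). In the pancreas their differences were -0.16 and -0.04. DESeq2 also called 1 gene of the region down in oral KO tumors, Gm20515, inside the Sox2ot span on the opposite strand. It had 10 to 77 counts in oral WT and 0 to 2 in oral KO tumors, with means of 1.16 and 0.0992 CPM. Beside these oral values stood the low protein-coding share of oral KO replicate 1 (59.5%) and the high muscle sums of both oral KO tumors, and their part was not tested. Gm20515, Gm27611 and the protein-coding neighbours are named after their values were seen. Gm27611, a small RNA gene that shares 107 exonic bases with Sox2ot on the same strand, had 0 to 3 counts in pancreatic WT and 19.7 to 114 in pancreatic KO tumors (4.15, standard error 0.78, adjusted p = 0.0624 by edgeR, called up by DESeq2), and its reads cannot be told from those of Sox2ot over the shared bases. The protein-coding neighbours Fxr1, Ttc14, Dnajc19 and Ccdc39 had pancreatic KO differences of 0.27, 0.00090, -0.22 and 0.14, none of them called. By edgeR, Sox2ot was thus the 1 gene of the region called up in pancreatic KO tumors.

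Over the 8 WT tumors, the protein-coding genes whose log2 CPM followed Sox2 most closely, of 14017 compared, were Atp6v1f (Pearson r = 0.98), Pak2 (0.98), Cmtr2 (0.98), Fam126a (0.98) and Gstm4 (0.98), and those that ran most against it included Cdk15 (-0.96) and Flt3l (-0.96). The 8 tumors fall into 2 sites that differ in Sox2, so these values are a description. Within the 4 oral tumors r was 0.99 for Atp6v1f and 1.00 for Pak2, and within the 4 pancreatic tumors 0.45 and 0.89. Among the Sox genes r was highest for Sox13 (0.88) and Sox15 (0.84). Within the oral and the pancreatic site it was 0.83 and -0.86 for Sox13 and -0.12 and -0.81 for Sox15. Neither was thus positive within both sites. Sox2 stood at 29.1 CPM in pancreatic WT replicate 1 and at 33.9 to 34.1 CPM in the other pancreatic WT tumors. Each r within the pancreas therefore mainly sets replicate 1 against the others. Other Sox genes had positive values within both sites, each over 4 tumors. They were Sox6 (0.60 and 0.86), Sox4 (0.39 and 0.58), Sox21 (0.42 and 0.10) and Sox12 (0.18 and 0.58). Over the 8 tumors r was 0.75 for Sox6 and 0.60 for Sox21, and -0.24 for Sox4 and -0.66 for Sox12.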

How the data were processed

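Tumor RNA was sequenced as stranded total RNA after depletion of ribosomal RNA. The authors deposited estimated counts per gene, not scaled for depth, made by trimming reads in Trim Galore 0.6.10, quantifying transcripts of a later GENCODE release on GRCm38 in kallisto 0.50.0 and summing over each gene in tximport. Of the values 27.3% were not whole, and 0 columns were left unmapped. Samples were grouped by their titles. Ensembl identifiers were matched to GENCODE M21 (GRCm38) for symbols, positions and sequences, and all 10 genes matched.

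After rounding, the counts were fitted in R 4.3.3 by the robust quasi-likelihood method of edgeR 4.0.16 with TMM factors and p adjusted by Benjamini-Hochberg over all genes tested. A fit kept the genes that reached 10 counts in 2 or more of its tumors, and calls needed an adjusted p below 0.05 together with a log2 fold change past 1 in either direction. Each site was fitted alone for KO against WT, WT tumors of both sites together, and the difference of KO effects over all 13 tumors. Levels are CPM with TMM factors over 13 tumors, and correlations were taken on log2 CPM (prior count 2). The script was tested on simulated counts. Whether the tumors came from separate mice is not given in the labels, so p-values measure the spread between these tumors.

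The members, the lists of partner genes and cell type markers, and the tests were chosen with earlier results of these data known. Named genes were the 10 members, other Sox genes and partners that were called or fixed by name, called genes of the Sox2ot region, and the 5 highest and 3 lowest correlations, of which 1 is not reported here. Alternatives were DESeq2 1.42.0 with and without apeglm 1.24.0, its size factors in edgeR, other count filters, fits without robust dispersions, with a replicate block, of protein-coding genes alone, of thinned counts and of all 13 tumors at once, and leaving out each tumor. Same-numbered tumors did not deviate together (correlations from -0.08 to 0.317), so the numbers were not taken as pairs.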

Additional observations from a re-analysis of the deposited data

Results flagged for a closer look

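Single tumors stood apart within their group of 4 WT tumors in 4 cases, where the gap to the nearest tumor took more of the group's range than Dixon's 95% critical value, a gap that chance gives in about 1 group in 20. In the pancreas Sox2 was lowest in WT replicate 1, at 29.1 CPM against 33.9 to 34.1 CPM in the other 3, and Sox11 was highest in WT replicate 4, at 45.8 CPM against 9.42 to 9.91 CPM. At the oral site WT replicate 4 was highest in Sox2ot, at 4.39 CPM against 0.769 to 0.887 CPM, and in Sox21, at 16.9 CPM against 1.28 to 3.93 CPM. That tumor is also the oral WT tumor with the highest muscle and hair follicle sums.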

How the results depend on the processing

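Sox2 was called in both KO comparisons under every alternative that tested it, with log2 fold changes from -11.98 to -8.20 in oral and from -12.18 to -10.70 in pancreatic tumors. With at least 10 counts in every tumor it was not tested, which left 1 gene called down in oral and 0 in pancreatic tumors. Sox15 kept its call between WT tumors under all 17 alternatives. Of the other oral calls, 1 gene was called down with the replicate block, where Sox4 was -1.21 (adjusted p = 0.158), and among protein-coding genes alone, and 1 gene, Sox2ot, was called up by DESeq2, by DESeq2 with apeglm and in the fit of all 13 tumors. In the pancreas 2 genes were called up with the replicate block (Sox2ot, and Sox11 at 1.90, adjusted p = 0.0193), and 0 among protein-coding genes, which leave Sox2ot out, and in the fit of all 13 tumors, where Sox2ot was 3.31 (adjusted p = 0.0712). With no count filter Sox9 lost its call between WT tumors (adjusted p = 0.131), and likewise with the replicate block (adjusted p = 0.109). The block changed no other call. DESeq2 called 1 interaction, Sox4. The cause of these changes was not tested.

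Leaving out 1 tumor at a time gave 1 to 2 genes called down and 0 to 1 up in oral KO, 1 to 2 up in pancreatic KO, 2 to 5 lower in oral WT tumors, and 0 to 1 interactions. Where an oral KO tumor was left out, the other was assumed to vary like the WT tumors. Signs turned for uncalled values only. In oral KO tumors the ranges were -1.34 to 0.86 for Sox7, -1.38 to 0.52 for Sox13, -0.61 to 0.15 for Sox6, -0.99 to 1.54 for Sox11 and -2.28 to 0.28 for Sox15. In pancreatic KO tumors they were -0.21 to 0.22 for Sox15, -0.35 to 0.22 for Sox13 and -0.18 to 0.52 for Sox4. For the interaction they were -0.62 to 2.14 for Sox2ot, -0.46 to 2.07 for Sox11, -0.47 to 1.81 for Sox21, -1.18 to 0.15 for Sox6, -1.44 to 0.76 for Sox7, -3.06 to 1.25 for Sox2, -0.39 to 1.51 for Sox13 and -0.21 to 2.35 for Sox15. Signs also turned among protein-coding genes for oral Sox13 (0.029), with no filter for pancreatic Sox15 (0.0047), and with the replicate block for pancreatic Sox13 (-0.036) and for the interactions of Sox2ot (-0.0094) and Sox21 (-0.070).

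Counts over all genes moved more. In oral KO tumors 19 to 3590 genes were called up (1968 in the analysis reported) and 8 to 1492 down (646), and in pancreatic KO tumors 3 to 389 up (83) and 7 to 726 down (72). The lowest values were those of protein-coding genes alone, and for oral genes called up 19 was also reached without oral WT replicate 2. Depth limits the oral KO tumors most, where a count of 0 allows 0.147 and 0.256 CPM.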
